A study of Mus musculus with 8 samples.

Results

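Hepatocytes from Yap/Taz HepKO and wild-type mice that had both been cultured on the stiff (20 kPa) hydrogel were compared gene by gene, using 2 RNA sequencing libraries of each genotype out of the 8 libraries of the series. Primary hepatocytes are cells isolated from the liver and kept in culture. Both genotypes came from C57BL/6J Yap fl/fl;Taz fl/fl mice of 7 to 8 weeks. The knockout mice had received AAV8-TBG-Cre, a viral vector in which the hepatocyte promoter TBG drives the Cre recombinase, and the wild-type mice AAV8-TBG-Null, which carries no Cre, so both groups carried the floxed alleles and a virus. After 10 days hepatocytes were isolated and cultured for 24 h on collagen-coated hydrogels. Cre is active in hepatocytes under this promoter, so other liver cells that came along with the isolation would keep both genes. The study's methods state that the floxed line was bred with a ROSA26-LSL-tdTomato reporter, which Cre switches on. All 14279 genes that passed a filter on low counts, of 56748 listed, were included. The soft (1 kPa) hydrogel, with 2 libraries of each genotype, is used below for 1 question, whether the genotype difference depended on the surface.

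YAP and TAZ (the latter encoded by Wwtr1) are transcriptional co-activators without a DNA-binding domain of their own. They reach their target genes mainly through TEAD transcription factors. The Hippo kinases LATS1 and LATS2 phosphorylate YAP and TAZ and keep them in the cytoplasm, while spreading on a stiff surface, tension of actin fibres and loss of cell contacts favour their entry into the nucleus. In the liver the pair is known for its role in organ size, biliary fate and regeneration.

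The 4 libraries held between 19897990 and 21218419 counts, and a count of 3, the most that a count of 0 allows at 95% confidence, was 0.141 to 0.151 CPM (counts scaled to a common library size), which covers counting error only. Neither the labels nor the methods say whether the 2 libraries of a group came from separate mice, so the p-values measure the spread between these libraries, which may be technical. Albumin was the most abundant transcript, with 8.39% and 8.55% of the counts in the wild-type and 5.58% and 5.54% in the knockout libraries. Genes of the mitochondrial chromosome took 2.75% and 2.77% in the wild-type and 3.42% and 3.39% in the knockout libraries. Markers of other liver cells were present at low levels and were higher in the knockout. The summed level of 12 stellate cell and fibroblast markers was at most 27.1 CPM in the wild-type and at least 57.2 CPM in the knockout libraries, and 7 of 10 tested were higher and 1, Col1a1, was lower. The sum of 10 endothelial markers was 56.0 to 56.3 CPM against 99.2 to 101 CPM, with 8 of 10 higher. The sum of 12 Kupffer cell and macrophage markers was 68.9 to 75.6 CPM against 154 to 157 CPM, with 11 of 12 higher. Of all genes tested, 13.7% were higher and 15% lower by the thresholds given below. Lymphocyte and neutrophil markers summed to between 0.845 and 1.95 CPM, and Cd3e, Cd3g, Nkg7 and Retnlg had 0 counts in all 4 libraries. In bulk RNA, fewer cells of a type and less RNA per cell cannot be told apart. Of the hepatocyte markers, Hnf4a and Tat were higher, Alb and Cps1 were lower, and the other 4 of 8 were not called. The labels disagree on sex, the design text naming female and the growth protocol male mice. The study's methods name male mice for the floxed line and for the isolation of hepatocytes. Xist had between 4818 and 7175 counts and the 4 Y-linked genes examined had 0 counts in each of the 4 libraries.

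**Figure D1:**
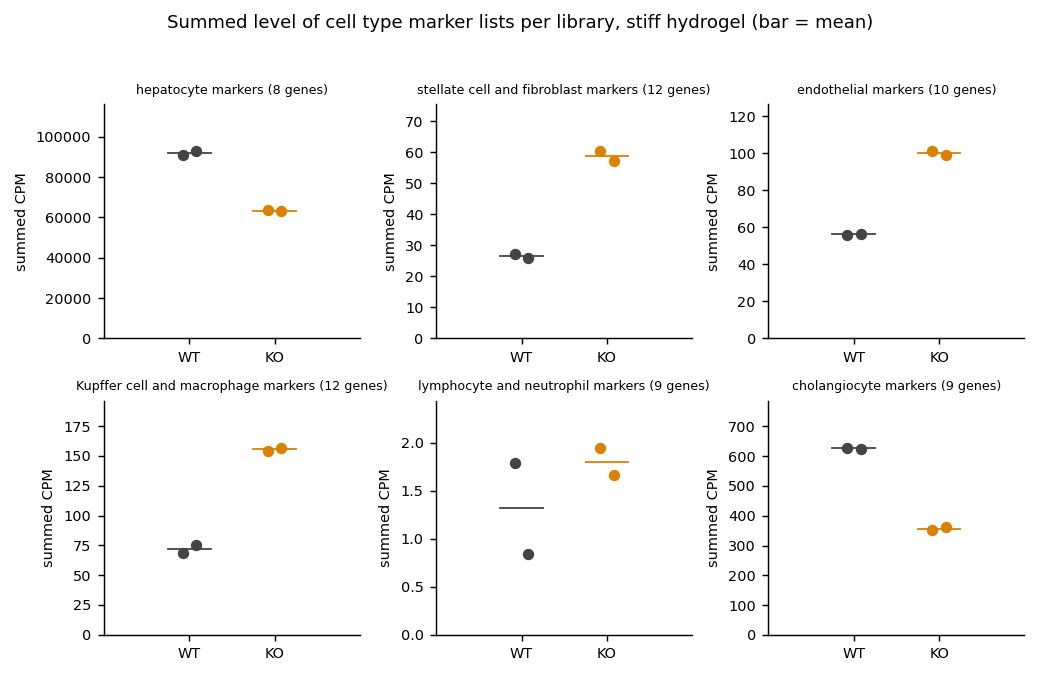
Summed CPM of each cell type marker list in the 4 libraries of the stiff hydrogel, 1 point per library, with a bar at the mean of the 2 libraries of a genotype and every axis starting at 0. The summed stellate, endothelial and Kupffer cell markers lie higher in both knockout libraries, and the hepatocyte sum, which is mostly albumin, and the cholangiocyte sum, which is mostly Spp1, lie lower.

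The targeted genes were lower in both knockout libraries. Yap1 (ENSMUSG00000053110, chromosome 9 from 7932000 to 8004597 as the deposited table gives it) had 2913 and 2651 counts in the wild-type and 606 and 634 in the knockout libraries, a log2 fold change of -2.21 (with a standard error, SE, of 0.065 and an adjusted p = 3.7e-15). Wwtr1 (ENSMUSG00000027803, chromosome 3 from 57363070 to 57483331 as the deposited table gives it) had 1325 and 1284 counts in the wild-type and 335 and 277 in the knockout libraries, a log2 fold change of -2.13 (SE 0.079, adjusted p = 9.21e-14). The 2 genotypes did not overlap for either gene. Counts were made over whole genes, and the exons that Cre removes are not given in the sources used here, so transcripts that keep other exons still count.

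Of the 14279 genes tested, 4103 (28.7%) differed between the genotypes, 1961 (13.7%) higher and 2142 (15%) lower in the knockout, in the quasi-likelihood test of edgeR (p-values adjusted by Benjamini-Hochberg), counting a gene when its adjusted p was below 0.05 and its log2 fold change beyond 0.5 in either direction. The change exceeded 1 on the log2 scale for 947 higher and 1150 lower genes, and 2 for 292 higher and 471 lower genes. The CPM of the 2 genotypes did not overlap for 74.5% of all genes tested and for 4098 of the 4103 genes called. The median log2 fold change over all genes tested was 0.01. Protein-coding genes made up 12450 of the genes tested, of which 1751 were higher and 1976 lower, and long non-coding RNAs 820, of which 126 were higher and 92 lower. Below, each function is described by a list of its genes, with the number higher and lower and the median log2 fold change, to be read against the 13.7%, 15% and 0.01 of all genes. The study's methods name dUTP for the cDNA synthesis, which marks strand, and the labels name either dUTP or dTTP, and whether strand was used in counting is not given in either. Ccnd1, Ccnd3, Dbp, Erbb2, Fosl1, Gls2, Nr1d1, P2ry14, Pltp, Sult1a1 and Vcl overlap a gene on the other strand that had at least 10% of their counts, as do Abcg5 and Abcg8 each other, so the counts of such pairs are uncertain.

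**Figure D2:**
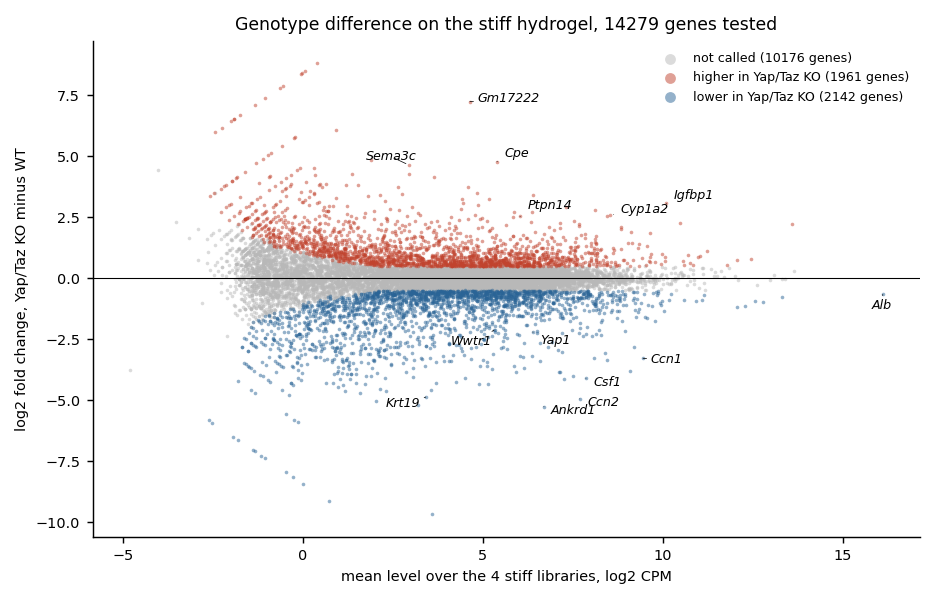
Log2 fold change of knockout over wild type on the stiff hydrogel (vertical) against the mean level over the 4 libraries in log2 CPM (horizontal), 1 point per gene tested, with 1961 genes higher in red, 2142 lower in blue and 10176 not called in grey. Among abundant genes, Ccn1, Ccn2, Ankrd1 and Csf1 lie far below 0, Igfbp1 far above it, and the diagonal rows at low levels are genes with few counts, whose fold changes are imprecise.

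**Figure D3:**
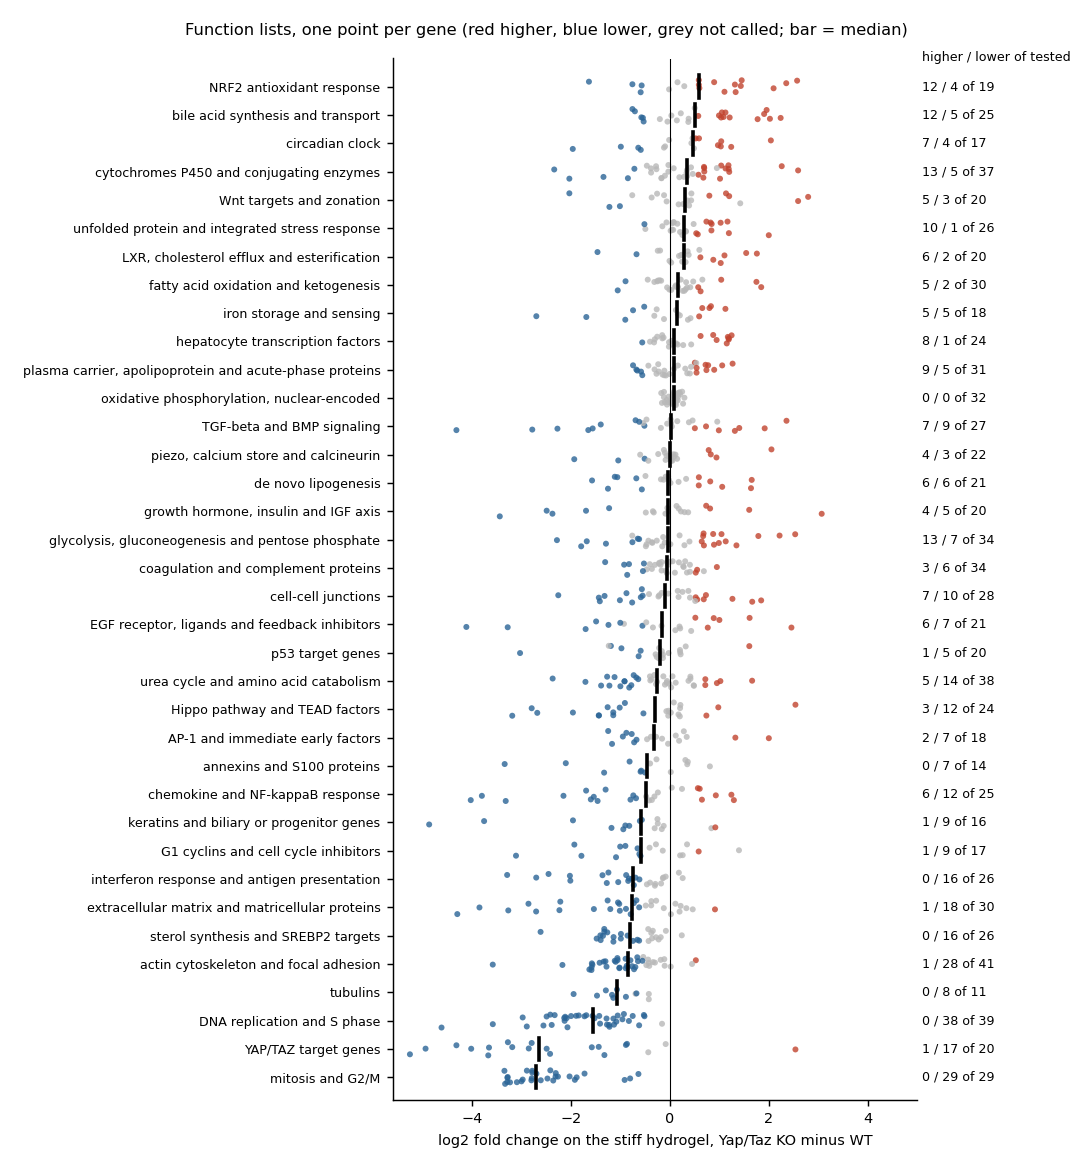
Log2 fold change of every tested member of the 36 function lists, ordered by the list median (black bar), with the number higher and lower of those tested at the right. The lists of mitosis, YAP/TAZ target genes and DNA replication lie farthest below 0, the NRF2 and bile acid lists highest above it, and all 32 oxidative phosphorylation genes lie close to 0.

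The known target genes of YAP and TAZ were lower almost throughout. Of 20 tested, 17 were lower and 1 was higher, and the median was -2.65 on the log2 scale. Ccn1 and Ccn2 encode secreted matricellular proteins, and Ankrd1 a nuclear ankyrin repeat protein, and the 3 serve widely as readouts of YAP and TAZ activity. Upstream sequences of 3 members that were lower and of the 1 member that was higher are shown here, each with the 250 bases before its start in RefSeq (build GRCm38.p6). Capitals mark GGAATG or its reverse complement CATTCC, the core of the motif that TEAD factors bind.
Ccn1: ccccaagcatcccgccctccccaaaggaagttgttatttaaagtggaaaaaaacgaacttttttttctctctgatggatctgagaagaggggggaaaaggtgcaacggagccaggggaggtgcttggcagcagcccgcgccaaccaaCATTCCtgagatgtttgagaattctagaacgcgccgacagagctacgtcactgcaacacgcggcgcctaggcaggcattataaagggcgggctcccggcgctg
Ankrd1: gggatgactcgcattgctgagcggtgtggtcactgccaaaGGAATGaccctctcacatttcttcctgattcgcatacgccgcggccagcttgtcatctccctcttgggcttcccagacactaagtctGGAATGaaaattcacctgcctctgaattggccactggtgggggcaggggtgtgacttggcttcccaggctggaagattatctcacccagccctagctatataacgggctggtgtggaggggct
Amotl2: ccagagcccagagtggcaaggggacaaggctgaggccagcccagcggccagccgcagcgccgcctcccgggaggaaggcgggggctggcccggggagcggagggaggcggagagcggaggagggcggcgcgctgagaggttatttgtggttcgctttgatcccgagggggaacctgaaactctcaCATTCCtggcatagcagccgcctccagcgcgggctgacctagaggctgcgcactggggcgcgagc
Ptpn14: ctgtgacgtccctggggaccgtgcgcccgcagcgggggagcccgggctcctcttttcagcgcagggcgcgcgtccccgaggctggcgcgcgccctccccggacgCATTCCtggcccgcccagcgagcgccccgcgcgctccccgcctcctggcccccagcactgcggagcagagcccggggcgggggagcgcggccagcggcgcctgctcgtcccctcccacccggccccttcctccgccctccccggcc
The motif stands 103 bases before the start of Ccn1 (chromosome 3, minus strand, 145649986 to 145650235), 210 and 123 before that of Ankrd1 (chromosome 19, minus strand, 36119845 to 36120094), 65 before that of Amotl2 (chromosome 9, plus strand, 102717554 to 102717803) and 146 before that of Ptpn14 (chromosome 1, plus strand, 189728018 to 189728267). RefSeq promoters were matched for 16 of the 22 listed targets, with 18 start sites, and 7 of these 18 windows held the motif on either strand. It occurred in 12.6% of all 32851 windows of this length, in 13.5% of those of genes lower and 11.2% of those of genes higher in the knockout, and in 10.3% of those of tested genes not called. A match describes these letters only and is not a measured binding site.

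Ccn2 (ENSMUSG00000019997, chromosome 10 from 24471340 to 24474581 as the deposited table gives it) had 399 and 402 CPM in the wild-type and 12.8 and 13.2 CPM in the knockout libraries. Its log2 fold change was -4.94 (SE 0.069, adjusted p = 1.77e-19), a level 30.8-fold lower. Ankrd1 (ENSMUSG00000024803, chromosome 19 from 36089361 to 36097499 as the deposited table gives it) had 199.8 and 204 CPM in the wild-type and 5.43 and 5.09 CPM in the knockout libraries, a log2 fold change of -5.26 (SE 0.076, adjusted p = 2.09e-19). Ccn1, the most abundant of the 3, had 1271 and 1264 CPM in the wild-type and 132 and 129 CPM in the knockout libraries, a log2 fold change of -3.28 (SE 0.05, adjusted p = 4.11e-19). For each of these genes the libraries of a genotype lay close together and far from the other genotype. Tgfb2, a ligand of the TGF-beta receptors, changed by -4.32 on the log2 scale, although Gm35546 on the other strand had a mean of 215 counts against 603 for Tgfb2 over the 4 libraries, so part of its count is uncertain. Igfbp3, which binds IGF1 in the circulation, changed by -2.50 and the receptor tyrosine kinase Axl by -0.89.

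Of 24 genes of the Hippo pathway and its TEAD factors, 12 were lower and 3 were higher, with a median of -0.31. Amotl2, which holds YAP at cell junctions, had 117 and 118 CPM in the wild-type and 14.4 and 11.2 CPM in the knockout libraries (log2 fold change -3.19, SE 0.089). Ajuba, a LIM protein that inhibits LATS kinases, changed by -2.80. The kinase gene Lats2 changed by -1.44, but 56.4% of its 64-base windows occur in another transcript, which makes its count uncertain. Tead1 changed by -1.02 and Tead2 by -2.69. Nf2, the upstream activator of the kinases, was not called (-0.07, adjusted p = 0.452). The exception on the other side was Ptpn14, a phosphatase that binds and restrains YAP and is itself listed as a target. It had 18.7 and 19.8 CPM in the wild-type and 111 and 112 CPM in the knockout libraries, a log2 fold change of 2.54 (SE 0.061, adjusted p = 2.74e-16). Amot was also higher, by 0.73. Amotl1 was called higher (0.98) at 1.58 to 3.89 CPM, and that call was lost without the second wild-type library, without the first knockout library and with DESeq2 on the 4 stiff libraries.

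**Figure D4:**
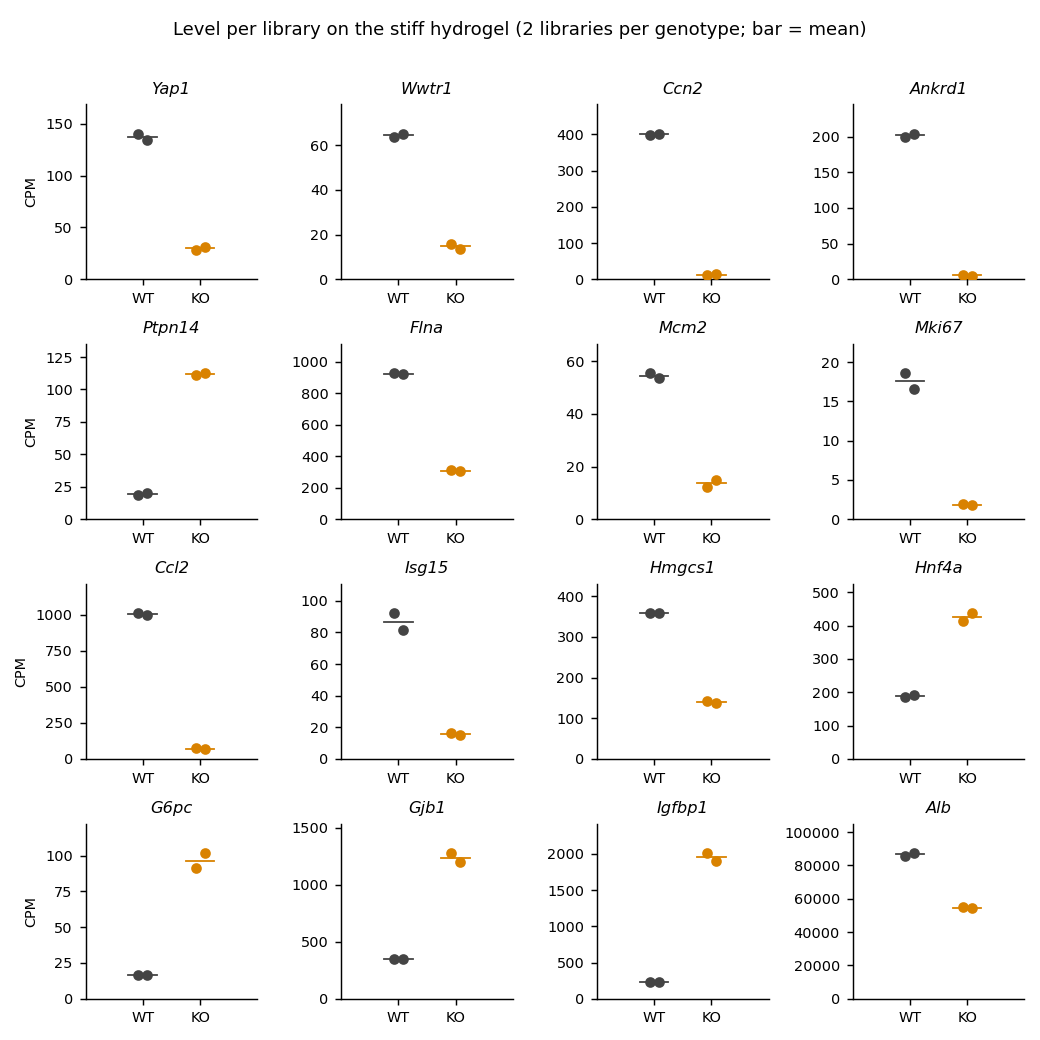
CPM in each of the 4 libraries of the stiff hydrogel for 16 genes of the text, 1 point per library, with a bar at the mean of the 2 libraries of a genotype and every axis starting at 0. In each panel both knockout libraries lie on the same side of both wild-type libraries, lower for 11 of the genes and higher for Ptpn14, Hnf4a, G6pc, Gjb1 and Igfbp1.

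Of 41 genes of the actin cytoskeleton and focal adhesions, 28 were lower and 1 was higher, with a median of -0.86. Flna, which cross-links actin filaments, had 926 and 924 CPM in the wild-type and 312 and 303 CPM in the knockout libraries (log2 fold change -1.59, SE 0.039, adjusted p = 2.88e-16). Actb had 6863 and 6703 CPM in the wild-type and 3257 and 2993 CPM in the knockout libraries (-1.12), and the cross-linker Actn1, the membrane linker Msn and the calponin Cnn2 changed by -2.18, -1.63 and -3.58. The focal adhesion gene Vcl was the member called higher, by 0.52 and close to the threshold, and this call was lost without the first wild-type or the first knockout library. Of 11 tubulins, 8 were lower and 0 were higher, with a median of -1.07. Tubb6, which shares no 64-base window with another gene, changed by -1.30, whereas Tuba1a (-1.95) and Tubb2b (-1.48) share 69.9% and 35% of their windows and are uncertain.

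Of 30 genes of the extracellular matrix and its receptors, 18 were lower and 1 was higher, with a median of -0.76. Thrombospondin 1 (Thbs1), a matricellular protein, had 115 and 111 CPM in the wild-type and 7.35 and 8.25 CPM in the knockout libraries (log2 fold change -3.85, SE 0.09). The integrin subunit Itgb6 changed by -4.30 and fibronectin (Fn1) by -0.89 from means of 2818 to 1519 CPM. The laminin chain Lamc1 was the member that was higher (0.91). Among the annexins and S100 proteins, which bind calcium and membranes, 7 of 14 were lower and 0 were higher. Anxa3 had 645 and 633 CPM in the wild-type and 61.7 and 64.1 CPM in the knockout libraries (-3.34, adjusted p = 1.77e-19) and S100a6 485 and 478 CPM in the wild-type and 110.1 and 113 CPM in the knockout libraries (-2.11). Fibroblasts and endothelial cells also express genes of these lists. In the same libraries 7 of 10 stellate cell and fibroblast markers and 8 of 10 endothelial markers were higher, against 13.7% of all genes. The fibroblast marker and matrix gene Col1a1 was lower (-0.62), and the part of these cells in the differences was not tested.

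Keratins and biliary genes were lower in 9 and higher in 1 of 16 tested, with a median of -0.59. Krt19, a keratin of bile duct cells, had 21.02 and 20.1 CPM in the wild-type and 0.703 and 0.692 CPM in the knockout libraries, a log2 fold change of -4.87 (SE 0.23, adjusted p = 4.09e-12). The hepatocyte keratins Krt8, which shares 24.2% of its windows, and Krt18 changed by -0.94 and -1.18, and Spp1 by -0.90. Sox9, a transcription factor of biliary cells, was at 38.04 and 42.1 CPM and 38.5 and 34.8 CPM, with overlapping genotypes (-0.13, adjusted p = 0.161). Other defining bile duct markers were near 0, with Krt7 at 0 to 3 counts and Cftr and Tff2 at 0 in all 4 libraries. Cell junction genes went both ways, with 7 higher and 10 lower of 28. The tight junction genes Cgn (-2.26), Cldn3 (-1.44) and Cldn1 (-1.32) and E-cadherin (Cdh1, -1.01) were lower. The gap junction genes were higher, Gjb1 with 346 and 345 CPM in the wild-type and 1278 and 1199 CPM in the knockout libraries (1.84, SE 0.044) and Gjb2 by 1.66.

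Of 39 genes of DNA replication and the S phase, 38 were lower and 0 were higher (median -1.57), and of 29 genes of mitosis, 29 were lower (median -2.70). Mcm2, a subunit of the replicative helicase, had 55.5 and 53.6 CPM in the wild-type and 12.4 and 14.9 CPM in the knockout libraries (log2 fold change -2.001, SE 0.093, adjusted p = 2.42e-12). The loading factor Cdc6 changed by -4.62, the epigenetic maintenance factor Uhrf1 by -3.58, cyclin E1 (Ccne1) by -2.07 and Pcna, which shares 27.3% of its windows, by -1.06. Mitotic genes were low in both genotypes. Mki67 had 18.6 and 16.6 CPM in the wild-type and 1.87 and 1.73 CPM in the knockout libraries (-3.28), Cdk1 14.1 and 14.3 CPM in the wild-type and 2.01 and 2.08 CPM in the knockout libraries (-2.80), and Plk1 changed by -2.79. These 3 transcripts lay at or below 2.08 CPM in both knockout libraries. Among G1 regulators 9 of 17 were lower and 1 was higher. Cyclin D1 (Ccnd1) had 68.6 and 70.8 CPM in the wild-type and 7.45 and 8.65 CPM in the knockout libraries (-3.12, SE 0.098) and cyclin D3 (Ccnd3) changed by -1.79 and Myc by -1.09. The inhibitor Cdkn1a was not called, at 0.20. Of 20 p53 target genes 5 were lower and 1 was higher (median -0.21), with Mdm2 and Ccng1 not called (-0.19 and -0.14), Plk2 changed by -3.03 and Trp53inp1 by 1.60.

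For the EGF receptor family 6 were higher and 7 lower of 21 (median -0.17). The receptor genes themselves differed in direction, Egfr at -0.56, Erbb2 at -3.28 and Erbb3 at 1.00. The feedback inhibitors Errfi1 (-1.71) and Spry1 (-4.12) and the ligand Hbegf (-1.25) were lower, and the ligands Btc (1.61) and Areg (0.76) and the phosphatase Dusp4 (2.46) were higher. For TGF-beta and BMP signaling 7 were higher and 9 lower of 27 (median 0.01). The activin subunit Inhba changed by -2.28, Bmp4 by -2.79 and Smad7 by -1.40, whereas Bmp2 was higher (2.35, 2.12 and 1.88 against 10.1 and 10.4 CPM). Bmp2 is also made by liver endothelial cells, whose markers were higher in the same libraries, and their part in this difference was not tested. Immediate early factors were lower in 7 and higher in 2 of 18. Fosl1 changed by -0.68, Maff by -1.17 and Ier5 by -1.25, Egr1 was not called (-0.28), and Klf4 was higher, with 7.42 and 7.37 CPM in the wild-type and 28.6 and 30.5 CPM in the knockout libraries (2.00).

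Of 25 genes of the chemokine and NF-kappaB response, 12 were lower and 6 were higher (median -0.48). Ccl2, which attracts monocytes, had 1012 and 1002 CPM in the wild-type and 72.5 and 71.5 CPM in the knockout libraries, a log2 fold change of -3.81 (SE 0.044, adjusted p = 3.02e-20). Ccl7 changed by -3.32, Ccl20 by -4.03 and the inhibitor Nfkbia by -1.70. Higher members were the acute-phase gene Lcn2, with 77 and 72.9 CPM in the wild-type and 145 and 139.9 CPM in the knockout libraries (0.93, SE 0.05), and the less abundant Cxcl5 (1.24) and Saa3 (1.29). Of 26 interferon response and antigen presentation genes, 16 were lower and 0 were higher (median -0.75). Isg15 had 92.1 and 81.5 CPM in the wild-type and 16.2 and 15.4 CPM in the knockout libraries (-2.46, SE 0.084). Ifit1 (-2.02) and Ifit2 (-3.29) were also lower, and B2m, a subunit of MHC class I, was not called (-0.18). Kupffer cells express many such transcripts, and 11 of 12 of their markers were higher in the same libraries, against 13.7% of all genes. The part of Kupffer cells in these differences was not tested.

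Of 26 genes of sterol synthesis and SREBP2 targets, 16 were lower and 0 were higher (median -0.80). Hmgcs1, an early enzyme of the pathway, had 358 and 358 CPM in the wild-type and 142 and 137 CPM in the knockout libraries (log2 fold change -1.36, SE 0.044, adjusted p = 1.54e-14). The feedback gene Insig1 changed by -1.41. Sqle had a smaller difference that did not pass (-0.44). Of 20 LXR, efflux and esterification genes, 6 were higher and 2 lower (median 0.28). Nr1h3, which encodes LXRα, had 39.3 and 40.8 CPM in the wild-type and 60.3 and 62.3 CPM in the knockout libraries (0.61, SE 0.066). Abcg1 (1.10), the ubiquitin ligase Mylip (1.54), and Soat2, which esterifies cholesterol (1.76), were higher. The efflux transporters Abca1 (0.23), Abcg8 (0.38) and Abcg5 (0.02) were not called. Abca1 missed only the fold-change threshold (adjusted p = 0.00142), at 82.3 and 87.95 CPM in the wild-type and 97.6 and 102.8 CPM in the knockout libraries. On the soft hydrogel Abca1 was at -0.23, an interaction of 0.46 (adjusted p = 0.000137) below the size threshold. Abcg8 had an adjusted p of 0.161. Abcg5 was at only 2.6 and 2.79 CPM and 2.62 and 2.87 CPM, with overlapping genotypes. Abcg1 and Mylip had means of 1.88 and 0.743 CPM in the wild type, and macrophages, whose markers were higher, also express Abcg1, so their part in that difference was not tested. Pltp was lower (-1.47).

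For fatty acids, 6 of 21 genes of lipogenesis were higher and 6 lower (median -0.04). Acly, which supplies cytosolic acetyl-CoA, and the carbohydrate sensor Mlxipl were higher (0.81 and 1.65), Gpam and Fads2 lower (-1.58 and -1.12), and Fasn was not called (-0.09). Acaca was called higher (1.64) but shares 49.6% of its windows with another transcript. Of 30 genes of fatty acid oxidation and ketogenesis, 5 were higher and 2 lower (median 0.15). Bdh1, an enzyme of ketone body metabolism, had 25.8 and 26.8 CPM in the wild-type and 87.3 and 89.2 CPM in the knockout libraries (1.75), and the log2 fold change was 0.57 for Cpt1a and 1.84 for the hormone gene Fgf21. Bile acid genes were higher in 12 and lower in 5 of 25, with a median of 0.50. The canalicular phospholipid transporter Abcb4 had 178 and 181 CPM in the wild-type and 714 and 740 CPM in the knockout libraries (2.02, SE 0.039, adjusted p = 1.04e-17) and the basolateral exporter Abcc4 71.2 and 71.99 CPM in the wild-type and 341 and 334 CPM in the knockout libraries (2.24). Cyp8b1, which sets the cholic acid share, changed by 1.08. The bile salt export pump Abcb11 (-0.71) and the uptake transporter Slc10a1 (-0.76) were lower, Cyp27a1 was not called (0.37), and Cyp7a1 did not reach the count filter.

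Among hepatocyte transcription factors, 8 of 24 were higher and 1 was lower (median 0.09). Hnf4a, a master regulator of the hepatocyte programme, had 186 and 192 CPM in the wild-type and 414 and 437 CPM in the knockout libraries (log2 fold change 1.17, SE 0.043, adjusted p = 7.52e-14). Cebpa (1.15), Prox1 (1.19) and Xbp1 (1.19) were higher by a similar amount. Of 31 carrier, apolipoprotein and acute-phase genes, 9 were higher and 5 lower (median 0.08), and of 34 coagulation and complement genes 3 were higher and 6 lower (median -0.06). Alb had 85830 and 87360 CPM in the wild-type and 54860 and 54500 CPM in the knockout libraries (-0.66, SE 0.014), the largest difference in CPM of any gene tested, and haptoglobin (Hp) changed by -0.68. Trf was lower too (-0.75) but shares 79.1% of its windows. Ahsg (0.89) and Mttp, which loads lipid on apolipoprotein B (1.05), were higher, while Ttr (0.08), Apob (0.16) and Apoa1 (0.31) were not called. In the coagulation list, Mbl2 changed by -1.31 and F7 by 0.95, and C3 and F2 were not called (-0.09 and -0.07).

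Of 37 cytochromes P450 and conjugating enzymes, 13 were higher and 5 lower (median 0.34). Cyp1a2 had 107 and 104 CPM in the wild-type and 653 and 618 CPM in the knockout libraries (log2 fold change 2.59, SE 0.047, adjusted p = 5.15e-18) and Cyp2e1 had 70.4 and 69.5 CPM in the wild-type and 473 and 496 CPM in the knockout libraries (2.79). Both are enzymes of hepatocytes around the central vein, as is glutamine synthetase (Glul), which changed by 1.13. The periportal P450 Cyp2f2 had 337 and 333 CPM in the wild-type and 83.9 and 79.5 CPM in the knockout libraries (-2.04), and of the other periportal genes Gls2 changed by -1.23 while Hal and Pck1 were not called (-0.26 and -0.76). Pck1 had means of only 0.984 CPM in the wild type and 0.583 CPM in the knockout, with overlapping genotypes, too few counts to tell. In the whole list of Wnt targets and zonation genes, 5 were higher and 3 lower of 20 (median 0.31), and the Wnt target Axin2 did not reach the count filter. Cyp2a5, which shares 31.2% of its windows with a related gene, changed by 2.26, Sult1a1 by -2.34, and Cyp3a11 was not called (0.19). Genes of the urea cycle and of amino acid breakdown were lower in 14 and higher in 5 of 38 (median -0.27). Arg1 (-1.39), Cps1 (-0.68), Bhmt (-2.37) and Uroc1 (-1.71) were lower, and Tdo2 (1.66), Tat (1.02) and Mat1a (0.95) were higher.

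Glucose genes were higher in 13 and lower in 7 of 34 (median -0.05). G6pc, the last enzyme of gluconeogenesis, had 16.5 and 16.9 CPM in the wild-type and 91.4 and 102 CPM in the knockout libraries (2.53), and glycogen synthase 2 (Gys2) changed by 1.79. The hexokinases that most non-hepatic cells use, Hk1 (-1.68) and Hk2 (-2.29), and the brain-type aldolase Aldoc (-1.80) were lower, and Pkm was higher (1.04, with 25.7% of its windows shared). In the growth hormone, insulin and IGF axis, with 4 higher and 5 lower of 20, Igfbp1 (ENSMUSG00000020429, chromosome 11 from 7147782 to 7152546 as the deposited table gives it) had 236 and 231 CPM in the wild-type and 2009 and 1905 CPM in the knockout libraries, a log2 fold change of 3.07 (SE 0.036, adjusted p = 3.02e-20). Igf1 had 369 and 367 CPM in the wild-type and 70.9 and 70.7 CPM in the knockout libraries (-2.38), the growth hormone feedback gene Socs2 changed by -3.44, and Irs1 by 1.60.

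NRF2 target genes were higher in 12 and lower in 4 of 19, with the highest list median, 0.59. The cystine transporter Slc7a11 had 98.8 and 103 CPM in the wild-type and 599.7 and 598 CPM in the knockout libraries (log2 fold change 2.57, SE 0.043), and Gclc, Nqo1 and Cbr3 changed by 1.33, 1.31 and 2.35. Osgin1 (-1.64, 1133 and 1131 against 367 and 359 CPM) and Hmox1 (-0.59) were lower. The unfolded protein and integrated stress list held 10 higher and 1 lower of 26 (median 0.28), with Trib3 at 2.00, Asns at 0.82 and Hspa5 not called (0.15). Clock genes were higher in 7 and lower in 4 of 17 (median 0.46). Dbp, an output gene of the clock, had 1.98 and 1.88 CPM in the wild-type and 8.66 and 7.21 CPM in the knockout libraries (2.04), Per2 changed by 1.24, Npas2 by -1.97 and Bhlhe40 by -0.99, and Nr1d1 was not called (0.46). Iron genes were higher in 5 and lower in 5 of 18 (median 0.14). The transferrin receptor Tfrc changed by -1.69 and ferritin heavy chain (Fth1) by 0.80.

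Not every list differed. None of 32 nuclear-encoded genes of oxidative phosphorylation passed both thresholds in edgeR (median 0.08), and Cox4i1 and Atp5a1 were at 0.12 and 0.14. At an unadjusted p under 0.05, 13 of them were higher and 2 lower, and DESeq2 called 0 of them. Of all 14279 genes tested, 8015 had an unadjusted p under 0.05 in either direction. For the lists above in which edgeR called 0 genes higher, the number higher at an unadjusted p under 0.05 was 0 for tubulins, DNA replication, mitosis and sterol synthesis, 3 for annexins and S100 proteins and 1 for the interferon genes, and DESeq2 called 0 in each. In the list of piezo, calcium store and calcineurin genes, 4 were higher and 3 lower of 22, with a median of 0.00. Piezo1, a mechanically gated channel, had 54.97 and 59.3 CPM in the wild-type and 14.9 and 14.9 CPM in the knockout libraries (-1.94, SE 0.085), although Ctu2 on the other strand had a mean of 555 counts against 732 for Piezo1 over the 4 libraries, which makes the value uncertain. Rcan2, an inhibitor of calcineurin, was higher (2.05, 4.58 and 3.81 against 17.4 and 17.4 CPM).

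Among called genes whose mean reached 100 counts and whose genotypes did not overlap, 1222 were higher and 1455 lower, and the 15 most changed in each direction were examined singly. The most negative were Mup18, Ankrd1, Olfr1372-ps1, Ccn2, Krt19, Cdc6, Tgtp1, Tgfb2, Mup17, Itgb6, Fbln2, Crct1, Csf1, P2ry14 and Ccl20. Csf1, the growth factor of macrophages, had 442 and 437 CPM in the wild-type and 25.9 and 25.5 CPM in the knockout libraries, a log2 fold change of -4.10 (SE 0.058, adjusted p = 1.77e-19). The matrix protein fibulin 2 (Fbln2) changed by -4.24, the nucleotide sugar receptor P2ry14 by -4.08 and Crct1 by -4.12, from 291 and 281 to 16.5 and 16.3 CPM. Mup18 had 916 and 78 counts in the wild-type and 1 and 0 in the knockout libraries, and Mup17 2401 and 347 against 6 and 133, so libraries of 1 genotype differed several-fold. Without the first wild-type library Mup18 was at -7.07 and Mup17 at -2.40, and neither was called. These major urinary protein genes share 87.8% and 72.9% of their windows, and Tgtp1 86.8%, and their counts are uncertain.

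The most positive were Gm17222, Cpe, Sema3c, Gt(ROSA)26Sor, Lipn, Atp13a4, Cck, Matn2, Bex2, Arrdc3, Aox3, Csdc2, Tmem158, Trdc and Igfbp1. Carboxypeptidase E (Cpe), which processes peptide hormones, (ENSMUSG00000037852, chromosome 8 from 65045576 to 65146088 as the deposited table gives it), had 3.23 and 2.64 CPM in the wild-type and 78.5 and 83.7 CPM in the knockout libraries, a log2 fold change of 4.78 (SE 0.095, adjusted p = 1.93e-17). The guidance factor Sema3c had 0.675 and 0.508 CPM in the wild-type and 15.97 and 13.8 CPM in the knockout libraries (4.64, SE 0.20). The peptide hormone gene Cck changed by 3.73 and the aldehyde oxidase Aox3 by 3.25. Arrdc3, an arrestin-domain protein, had 13.9 and 14.9 CPM in the wild-type and 153 and 152 CPM in the knockout libraries (3.41). Matn2 changed by 3.51 and Trdc by 3.08. Gm17222 had the highest estimate (7.24, 8 and 5 against 983 and 1073 counts), but all of its windows occur in another transcript, so the source of these reads cannot be told apart. Gt(ROSA)26Sor (4.30, 9 and 21 against 323 and 289 counts) is the locus that carries the Cre-dependent reporter in this line and overlaps Thumpd3 (mean 751 counts) on the opposite strand, and the part of either was not tested.

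Whether the genotype difference depended on the surface was tested as an interaction, within 1 edgeR fit of all 8 libraries. On the soft hydrogel 952 genes (6.67%) differed, 288 (2.02%) higher and 664 (4.65%) lower in the knockout, against 4103 on the stiff. The interaction was called for 2405 genes (16.8%), 1233 (8.64%) where the genotype difference on the stiff hydrogel was more positive and 1172 (8.21%) where it was more negative. Of the 4103 genes called on the stiff hydrogel, 2111 (51.5%) also had an interaction call. In both surfaces and in the same direction 235 genes were higher and 531 lower, and 16 were called in opposite directions. Genes that were called on the soft but not on the stiff hydrogel numbered 170. The YAP/TAZ targets had a median of -0.99 on the soft hydrogel, with 13 lower and 1 higher, and an interaction call for 17 of 20. The log2 fold change of Ankrd1 was -1.68 (soft) and -5.26 (stiff), an interaction of -3.58 (SE 0.12, adjusted p = 3.66e-13). The DNA replication list had 9 lower genes on the soft hydrogel (median -0.23) and 37 of 39 with a more negative difference on the stiff. The actin list had 6 lower genes on the soft hydrogel (median -0.12) and 26 of 41 more negative and 2 more positive on the stiff. For the sterol list 10 were lower on the soft (median -0.43), and 10 of 26 were more negative on the stiff hydrogel. Insig1 and Myc were lower on both surfaces, without an interaction call. Their interactions were -0.25 (adjusted p = 0.026) and -0.36 (adjusted p = 0.00148), which missed only the size threshold of 0.5. The urea cycle and amino acid list had 13 lower genes on the soft hydrogel, and 9 of 38 had a more positive and 4 a more negative difference on the stiff.

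**Figure D5:**
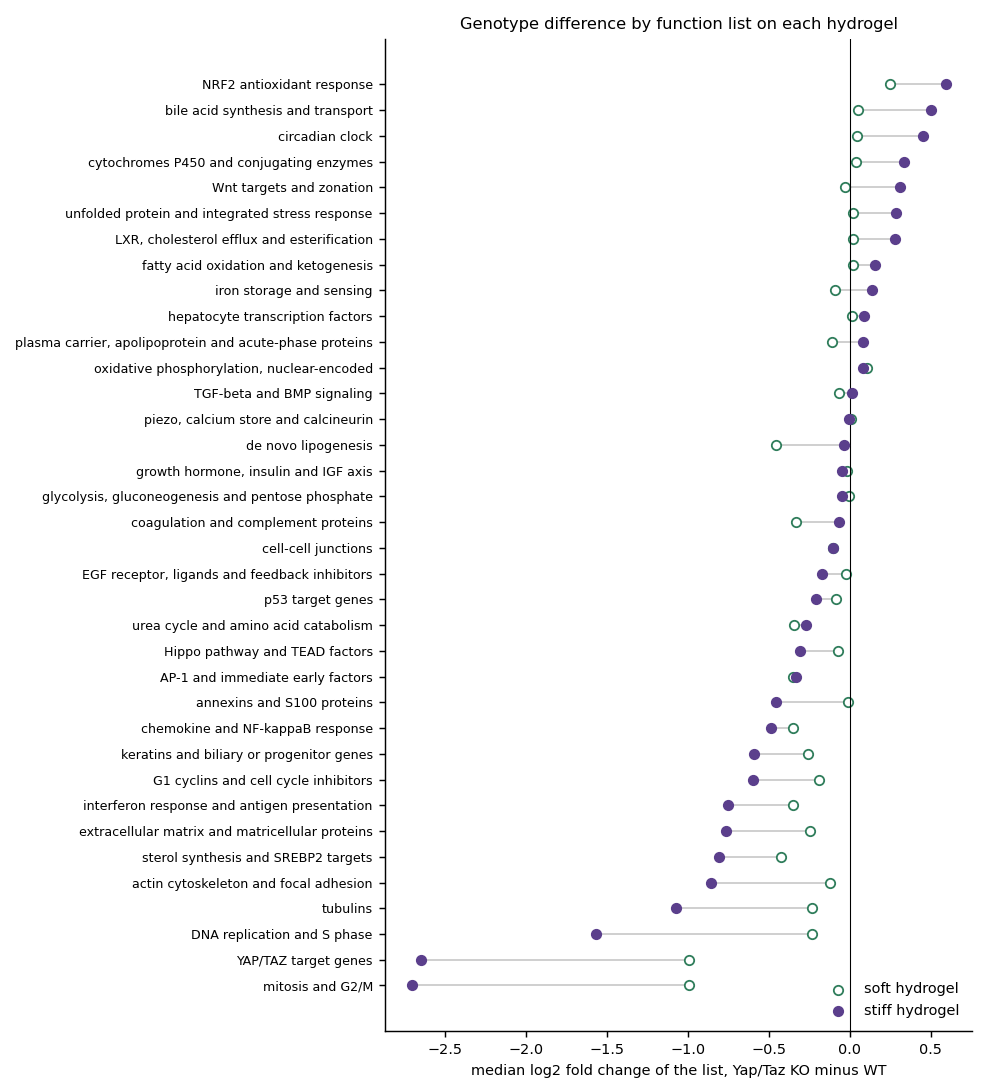
Median log2 fold change of knockout over wild type in each of the 36 function lists on the soft (open circles) and the stiff hydrogel (filled circles), with 2 libraries per genotype on each. The medians of the YAP/TAZ targets, -0.99 and -2.65, and of mitosis, -0.99 and -2.70, lie farthest below 0 on both surfaces, while DNA replication is at -0.23 (soft) and -1.57 (stiff).

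Lipogenic and acute-phase genes were among those whose difference changed with the surface in another way. Fasn was lower on the soft hydrogel (-1.42) and not called on the stiff (-0.09), an interaction of 1.33 (adjusted p = 1.66e-11). In the lipogenesis list 8 genes were lower on the soft hydrogel and 8 of 21 had a more positive difference on the stiff. Lcn2 was lower in the knockout on the soft (-0.70) and higher on the stiff hydrogel (0.93), an interaction of 1.63 (adjusted p = 4.84e-12). Among the 16 genes called in opposite directions were also Cpn2, Saa4 and Il1rn, chosen here after their values were seen. Their log2 fold changes were -0.78, -0.68 and -0.56 on the soft hydrogel, against 0.76, 0.50 and 0.56 on the stiff. Others of the 16 went the other way, higher in the knockout on the soft and lower on the stiff hydrogel. Among them was Mup17 (5.1 on the soft and -4.3 on the stiff), whose counts are uncertain. The call of Saa4 on the stiff hydrogel lay at the fold-change threshold and was lost under several alternatives, among them leaving out the first wild-type (0.44) or the second knockout library (0.45).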

How the data were processed

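The authors aligned paired-end reads of poly(A) RNA with HISAT2 and counted them per gene with featureCounts. The submitters' processing notes name HISAT2 2.0.5, DESeq2 1.20.0, edgeR 3.22.5, GATK 4.1.4.1 and the build mm9. The deposited table holds raw counts without normalization. Its positions equal the GRCm38 start for 1537 of 52125 genes matched, so they are printed as given. The methods name dUTP in the cDNA synthesis and the labels dUTP or dTTP. How counting treated strand and multi-mapping reads is not given in the sources used here.

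Counts were analysed with edgeR 4.0.16 and DESeq2 1.42.0 in R 4.3.3. Genes passing filterByExpr were scaled by TMM (factors 0.978 to 1.02) and fitted over all 8 libraries with glmQLFit (biological coefficient of variation 0.0542, 4 residual degrees of freedom). Contrasts used glmQLFTest with Benjamini-Hochberg adjustment over all genes tested. The thresholds were 0.05 for the adjusted p and 0.5 for the size of the log2 fold change. CPM come from edgeR's cpm function, with library totals taken after the filter and multiplied by the TMM factors. On simulated data with 200 of 14279 genes changed by 1 on the log2 scale between the stiff groups, edgeR recovered 88% with 13 other calls and DESeq2 85% with 1. Replicates differed by more than sampling noise (chi-square per degree of freedom 2.62 and 4.47), so none was merged.

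The 36 function lists (876 tested genes), the 7 marker lists and the comparison itself were chosen with earlier results of these data known. Genes named were Yap1, Wwtr1, key genes of each list, up to 3 called genes with the largest rise and fall per list, and the 15 largest rises and falls among called genes averaging 100 counts or more whose genotypes did not overlap. The rule gave 287 genes, of which the text gives those that carry each group, and some are not reported here. Shared sequence was measured on each gene's longest GENCODE M21 transcript, as the percentage of its windows (64 bases) found in another gene. Promoter sequences are from RefSeq. Alternatives changed the tool, scaling, filter, threshold, libraries and a term for the replicate number.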

Additional observations from a re-analysis of the deposited data

Results flagged for a closer look

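The genotype difference on the stiff hydrogel was marked where it differed from that on the soft hydrogel, by the interaction term of the fit over all 8 libraries (edgeR, adjusted p under 0.05 and an absolute value over 0.5). This held for 2405 genes, with a positive interaction in 1233 and a negative one in 1172. Of the 203 genes whose differences the text gives, 71 were among the first and 77 among the second, and 55 had no interaction call. The share over all genes tested was 16.8%. Many of the 203 were named for a large difference on the stiff hydrogel, which is part of the interaction. Their counts therefore cannot be read against that share. A negative interaction is a stiff-surface difference (knockout minus wild type, in log2 units) below that of the soft surface. Groups of 2 libraries are too small for a range-based test of outlying samples, and the effect of leaving out each stiff library is given with the alternatives.

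For the Hippo pathway and its TEAD factors, the negative interactions were -1.75 for Tead2, -1.72 for Amotl2, -1.30 for Ajuba, -0.99 for Lats2 and -0.64 for Tead1, and the positive interaction was 1.55 for Ptpn14. For other YAP/TAZ target genes, the negative interactions were -3.58 for Ankrd1, -3.36 for Ccn2, -2.40 for Tgfb2, -1.70 for Ccn1, -1.18 for Igfbp3 and -0.96 for Axl. For actin cytoskeleton and focal adhesion, the negative interactions were -2.76 for Cnn2, -1.58 for Actn1, -1.53 for Msn, -1.34 for Flna and -0.77 for Actb, and the positive interaction was 0.62 for Vcl. For extracellular matrix and matricellular proteins, the negative interactions were -2.56 for Itgb6, -2.09 for Thbs1 and -0.64 for Fn1, and the positive interaction was 0.68 for Lamc1. For keratins and biliary or progenitor genes, the negative interactions were -3.12 for Krt19, -0.71 for Krt18 and -0.52 for Krt8. For tubulins, the negative interactions were -1.66 for Tuba1a, -1.35 for Tubb2b and -0.78 for Tubb6. For annexins and S100 proteins, the negative interactions were -2.48 for Anxa3 and -1.90 for S100a6. For cell-cell junctions, the negative interactions were -1.42 for Cgn and -1.04 for Cldn3, and the positive interactions were 1.505 for Gjb1 and 1.36 for Gjb2. For DNA replication and S phase, the negative interactions were -2.83 for Cdc6, -2.38 for Uhrf1, -1.56 for Mcm2, -1.30 for Ccne1 and -0.96 for Pcna. For mitosis and G2/M, the negative interactions were -2.29 for Mki67, -1.80 for Plk1 and -1.60 for Cdk1. For G1 cyclins and cell cycle inhibitors, the negative interactions were -1.89 for Ccnd1 and -1.26 for Ccnd3. For p53 target genes, the negative interaction was -2.02 for Plk2, and the positive interaction was 1.27 for Trp53inp1.

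For AP-1 and immediate early factors, the negative interactions were -0.80 for Ier5 and -0.74 for Maff, and the positive interaction was 1.48 for Klf4. For EGF receptor, ligands and feedback inhibitors, the negative interactions were -2.39 for Erbb2 and -0.65 for Errfi1, and the positive interactions were 1.82 for Dusp4, 1.28 for Btc, 0.85 for Erbb3 and 0.78 for Areg. For TGF-beta and BMP signaling, the negative interactions were -1.75 for Inhba, -1.43 for Bmp4 and -1.29 for Smad7, and the positive interaction was 1.61 for Bmp2. For Wnt targets and zonation, the negative interaction was -0.84 for Cyp2f2, and the positive interactions were 1.77 for Cyp2e1, 1.34 for Cyp1a2 and 0.89 for Glul. For sterol synthesis and SREBP2 targets, the negative interaction was -1.02 for Hmgcs1. For LXR, cholesterol efflux and esterification, the positive interaction was 1.57 for Soat2. For de novo lipogenesis, the positive interactions were 1.46 for Acaca, 1.35 for Mlxipl, 1.33 for Fasn and 0.88 for Acly. For fatty acid oxidation and ketogenesis, the positive interactions were 1.65 for Fgf21 and 1.58 for Bdh1. For bile acid synthesis and transport, the positive interactions were 1.74 for Abcb4, 1.49 for Abcc4 and 1.29 for Cyp8b1. For hepatocyte transcription factors, the positive interactions were 1.06 for Cebpa, 1.02 for Prox1, 0.98 for Hnf4a and 0.95 for Xbp1. For plasma carrier, apolipoprotein and acute-phase proteins, the positive interactions were 1.18 for Saa4, 0.79 for Mttp and 0.78 for Ahsg. For coagulation and complement proteins, the negative interaction was -0.72 for Mbl2, and the positive interaction was 0.80 for F7.

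For cytochromes P450 and conjugating enzymes, the negative interaction was -0.68 for Sult1a1, and the positive interaction was 1.01 for Cyp2a5. For urea cycle and amino acid catabolism, the negative interaction was -0.57 for Uroc1, and the positive interactions were 1.03 for Tdo2, 1.02 for Mat1a and 0.58 for Tat. For glycolysis, gluconeogenesis and pentose phosphate, the negative interactions were -2.28 for Hk2 and -2.15 for Hk1, and the positive interactions were 1.66 for G6pc, 1.48 for Gys2 and 0.56 for Pkm. For growth hormone, insulin and IGF axis, the negative interactions were -2.31 for Socs2 and -1.93 for Igf1, and the positive interactions were 2.34 for Igfbp1 and 1.59 for Irs1. For circadian clock, the negative interactions were -1.58 for Npas2 and -0.71 for Bhlhe40, and the positive interactions were 1.95 for Dbp, 1.12 for Per2 and 0.64 for Nr1d1. For NRF2 antioxidant response, the positive interactions were 2.04 for Slc7a11, 1.46 for Cbr3, 0.98 for Gclc and 0.74 for Nqo1. For unfolded protein and integrated stress response, the positive interactions were 1.10 for Trib3 and 0.62 for Asns. For chemokine and NF-kappaB response, the negative interactions were -2.71 for Ccl20, -2.55 for Ccl2, -2.52 for Ccl7 and -1.44 for Nfkbia, and the positive interactions were 1.64 for Saa3, 1.63 for Lcn2, 1.17 for Cxcl5 and 1.12 for Il1rn. For interferon response and antigen presentation, the negative interactions were -1.51 for Ifit2, -1.11 for Isg15 and -0.75 for Ifit1. For iron storage and sensing, the negative interaction was -1.19 for Tfrc. For piezo, calcium store and calcineurin, the negative interaction was -1.27 for Piezo1, and the positive interaction was 1.70 for Rcan2. For genes outside the lists, the negative interactions were -10.98 for Mup18, -9.41 for Mup17, -3.88 for Olfr1372-ps1, -3.04 for Crct1, -2.74 for Tgtp1, -2.69 for Csf1, -2.41 for Fbln2, -2.10 for P2ry14, -0.76 for Wwtr1 and -0.52 for Yap1, and the positive interactions were 6.13 for Gm17222, 4.01 for Cpe, 3.93 for Sema3c, 3.43 for Gt(ROSA)26Sor, 3.28 for Cck, 3.23 for Lipn, 3.11 for Atp13a4, 2.90 for Arrdc3, 2.73 for Matn2, 2.52 for Csdc2, 2.30 for Bex2, 2.30 for Aox3, 2.27 for Tmem158, 2.23 for Trdc and 1.54 for Cpn2.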

How the results depend on the processing

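The number of genes called between the genotypes on the stiff hydrogel, 4103, depended most on the fold-change threshold. It was 2097 (947 higher, 1150 lower) at an absolute log2 fold change over 1, 7299 (3630 higher, 3669 lower) with no minimum, and 2651 with glmTreat against 0.5, which called 1177 higher and 1474 lower. DESeq2 called 3556 with all 8 libraries and 3323 with the 4 stiff libraries, a filter of at least 10 counts in every library gave 3520, and no filter 4314. Leaving out 1 of the 4 stiff libraries gave 3770 to 3992 genes, 1724 to 1859 higher and 2040 to 2133 lower, and for the interaction 2111 to 2451, 1052 to 1206 more positive and 1059 to 1245 more negative. A lone library is then assumed to vary like the others. The deviations of libraries with the same replicate number correlated at -0.023 between the 2 genotypes on the stiff hydrogel and between -0.101 and 0.042 over all pairs of groups, so the numbers did not pair the libraries. A replicate block gave 4071 genes on the stiff hydrogel (1937 higher, 2134 lower) and 2330 for the interaction, and it changed the call of none of the 203 genes. Of those genes, Abcg5, which was near 0, turned sign without the first wild-type or the second knockout library and ranged from -0.05 to 0.08 over the 4 fits that left a library out, with -0.04 in the former. Apart from the fold-change thresholds, calls were lost for Amotl1, Vcl, Col1a1, Saa4, Mup17 and Mup18 under at least 1 alternative, with Col1a1 at -0.44 without the second knockout library and Saa4 at 0.44 without the first wild-type and 0.45 without the second knockout library. Scaling by library size alone moved the median over all genes to 0.07. At this depth, levels near 0.151 CPM cannot be compared.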
